A study of Homo sapiens and Mus musculus with 22 samples.

Results

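The genes described here are 10 genes of the integrated stress response: the eIF2 kinase genes EIF2AK1, EIF2AK3 and EIF2AK4, the kinase substrate gene EIF2S1, the transcription factor genes ATF4, ATF5 and DDIT3, the pseudokinase gene TRIB3, and the phosphatase subunit genes PPP1R15A and PPP1R15B. They were chosen by name, with upper and lower case treated alike, from 33720 gene symbols in human and mouse tables. All 10 were found in each of the 3 tables, which hold 24548, 23749 and 23845 genes, and all 10 passed the filter on low values in every comparison. In the human tables ATF5 is 1 locus joined with the microRNA gene MIR4751, so its value covers both. Symbols are written in capitals for both species.

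RNA was sequenced from U2OS, a human osteosarcoma line grown in RPMI 1640, and L929, a mouse fibroblast line grown in DMEM. The SETDB1 set held U2OS WT cells and SETDB1 knockouts KO1 and KO2, all mock-treated, with 2 libraries per group. The ATG5 set paired U2OS vector cells with an ATG5 knockdown (KD), and the cGAS set paired L929 cells of cGAS WT with cGAS KO. In both of these sets cells were either mock-treated or given BIX-01294 (BIX), an inhibitor of the histone H3 lysine 9 methyltransferases EHMT1 and EHMT2, at 10 µM for 12 h, with 1 value per group. Each value of the ATG5 set stands for 2 replicates, per the labels, and separate values were not used here. The treatment note on the RNA samples gives BIX for all cells, while other labels call part of them mock. The latter were followed, and the sources used here do not say what a mock treatment was. Whether a KO is 1 clone or a pool, and how ATG5 was knocked down, is likewise not said.

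Translation factor eIF2 brings the initiator tRNA to the ribosome. Its alpha subunit is phosphorylated by kinases that each sense another stress, and this slows protein synthesis while mRNAs with short upstream reading frames, such as ATF4, ATF5, DDIT3 and PPP1R15A, are translated more. ATF4 then raises transcription of DDIT3, TRIB3 and genes of amino acid supply, and phosphatase subunits encoded by PPP1R15A and PPP1R15B guide protein phosphatase 1 to eIF2 and so end the response. The present values are mRNA levels, and neither phosphorylation nor translation was measured.

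The promoter windows shown are those of PPP1R15A and DDIT3, the genes with the largest BIX differences below, and of PPP1R15B, the other phosphatase subunit. Each line holds the 250 bases before the start site, 5′ to 3′ on the gene's strand, from RefSeq on GRCh38.p14, a later build than the hg19 of the files. Capitals mark a cAMP response element (TGACGTCA) in PPP1R15A and a match to the C/EBP-ATF response element (TGATGNAAN) in PPP1R15B.
PPP1R15A (chr19:48872171-48872420, + strand): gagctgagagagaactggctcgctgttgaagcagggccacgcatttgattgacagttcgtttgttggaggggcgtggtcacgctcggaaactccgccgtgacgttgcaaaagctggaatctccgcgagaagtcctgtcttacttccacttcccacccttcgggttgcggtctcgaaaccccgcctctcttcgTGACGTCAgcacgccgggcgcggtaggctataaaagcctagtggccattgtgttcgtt
PPP1R15B (chr1:204411818-204412067, - strand): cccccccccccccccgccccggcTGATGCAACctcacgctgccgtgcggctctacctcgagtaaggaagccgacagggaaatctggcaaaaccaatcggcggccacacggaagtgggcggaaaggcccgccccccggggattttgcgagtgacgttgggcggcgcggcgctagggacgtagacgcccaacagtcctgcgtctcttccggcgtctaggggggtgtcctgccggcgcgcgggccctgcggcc
DDIT3 (chr12:57520515-57520764, - strand): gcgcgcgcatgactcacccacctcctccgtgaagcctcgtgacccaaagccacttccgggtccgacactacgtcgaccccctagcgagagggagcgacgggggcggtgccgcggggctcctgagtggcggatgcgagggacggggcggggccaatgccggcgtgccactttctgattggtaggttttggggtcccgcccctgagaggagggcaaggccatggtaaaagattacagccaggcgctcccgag

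The letters of 3 elements were searched on both strands from 250 bases before to 50 bases after the start site. The table held such windows for 9 of the 10 genes (all but EIF2AK1), 15 windows in all. The cAMP response element began at position -58 from the PPP1R15A start site, and 2.25% of 27305 genes held it in a window. TGATGNAAN matched at -227 of PPP1R15B as TGATGCAAC, against 4.45% of all genes. Its exact form TGATGCAAT was in no window of the 9 genes and in 0.293% of all genes. The ER stress element was searched as an exact match only: CCAAT, 9 bases of any kind, then CCACG. It was in no window of the 9 genes and in 0.0916% of all genes. The DDIT3 window shown holds CCAAT and, at the same spacing, CCACT, which an exact match does not count. These matches describe letters only, and no binding was measured here.

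FPKM gives a level scaled to transcript length and to mapped reads, so levels of different genes can be set side by side. The sums of FPKM per sample lay between 445281 and 564049.5, with no read counts in the sources used here. Between the 2 libraries of a SETDB1-set group, 28 to 41 of 12648 genes were 2-fold apart. From the steps of low values, cGAS WT BIX was estimated at 0.747 of the reads in cGAS WT mock, while the other 3 L929 libraries had 1.00 to 1.01 times the reads of each other. Of 10 markers of mesenchymal cells and fibroblasts, 7 or 8 were at FPKM of at least 1 in every sample of a set. Blood and endothelial markers were under that level in every U2OS sample and summed to at most 3.60 in an L929 library. Of 5 epithelial markers, 4 were at 1 or more in every U2OS sample, KRT8 and KRT18 among them, and 0 in every L929 library. The WT libraries had SETDB1 mRNA at 9.98 and 9.32 FPKM, those of KO1 at 5.90 and 7.03, and those of KO2 at 6.89 and 7.35. For ATG5, vector and the value labelled ATG5 KD had 11.3 and 10.1 FPKM in mock, and 12.3 and 13.4 with BIX. For MB21D1, which encodes cGAS, WT and the library labelled cGAS KO had 2.82 and 1.19 in mock, and 3.47 and 4.41 with BIX. EHMT2, joined with ZBTB12 in the ATG5 set, went with BIX from 22.7 to 10.8 FPKM in vector and from 20.3 to 9.02 in ATG5 KD. In L929 it went from 67.3 to 31.1 in cGAS WT and from 70.4 to 49.1 in cGAS KO. EHMT1 went from 10.4 to 10.1 in vector and from 8.96 to 8.67 in ATG5 KD. Its L929 values went from 12.7 to 10.5 in cGAS WT and from 10.2 to 9.04 in cGAS KO. Since ATG5 and MB21D1 mRNA were not lower with BIX, these samples are named by their labels.

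In mock-treated U2OS cells the 10 genes kept a steady order. ATF4, the central transcription factor of the response, had the highest FPKM in 8 of 8 mock U2OS samples, with EIF2AK1 and then EIF2S1 after it. DDIT3, EIF2AK3 and TRIB3 took the last 3 places in all 8 samples, and their own order differed between samples. ATF5 and EIF2AK4 also changed places, since EIF2AK4 was higher in WT replicate 2 and vector mock and lower in the other 6. In mock L929 the order was another one: ATF5 was close to ATF4 (465 against 507 FPKM in cGAS WT, 593 against 568 in the library labelled cGAS KO), and EIF2AK4 had the lowest value. Human and mouse tables were normalized separately, so levels set across them carry that limit.

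SETDB1 is another H3K9 methyltransferase, and this set asks what its loss does to the levels of the 10 genes. EIF2AK1, the kinase known as HRI that answers to lack of heme and to mitochondrial stress, averaged 87.1 ± 2.46 FPKM in WT (± SD, n = 2), 87.0 ± 2.35 in KO1 and 87.2 ± 6.12 in KO2. EIF2AK3, known as PERK and a sensor of the endoplasmic reticulum (ER), was at 7.95 ± 0.531 in WT, 8.44 ± 0.811 in KO1 and 8.43 ± 0.813 in KO2. EIF2AK4, or GCN2, which senses uncharged tRNA, was at 29.8 ± 2.11, 27.4 ± 1.96 and 26.7 ± 0.768. For each kinase the range over the KO1 and KO2 libraries overlapped the range over the WT libraries. The KO2 libraries alone had less EIF2AK4 (26.1 and 27.2) than the WT libraries (31.2 and 28.3).

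EIF2S1, which encodes the phosphorylated subunit of eIF2, was at 70.6 and 71.5 FPKM in the WT libraries, 66.0 and 66.3 in KO1, and 67.7 and 64.2 in KO2. It was the only one of the 10 genes whose ranges over KO and over WT libraries did not overlap, with KO below WT, while 21.4% of 12648 genes had KO and WT libraries that did not overlap. The difference was -0.10 on the log2 scale (SE 0.084) and did not pass limma's test (adjusted p = 0.745).

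The ATF4 level was 311 ± 20.3 FPKM in WT (± SD, n = 2 per group), and 295 ± 12.7 and 316 ± 23.9 in KO1 and KO2. ATF5, a related factor that regulates mitochondrial chaperones and proteases, had the widest range: 32.2 and 24.9 in WT, 39.6 and 29.4 in KO1, and 34.7 and 29.7 in KO2. Its highest library was 1.59 times its lowest, and in each group replicate 1 was the higher one. DDIT3, which encodes CHOP, stayed between 7.20 and 9.24 in the 6 libraries, and TRIB3, whose protein binds AKT and ATF4, between 5.39 and 7.85. PPP1R15A, the inducible subunit known as GADD34, lay between 14.9 and 17.9, and PPP1R15B, the constitutive subunit known as CReP, between 11.7 and 14.6.

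**Figure D1:**
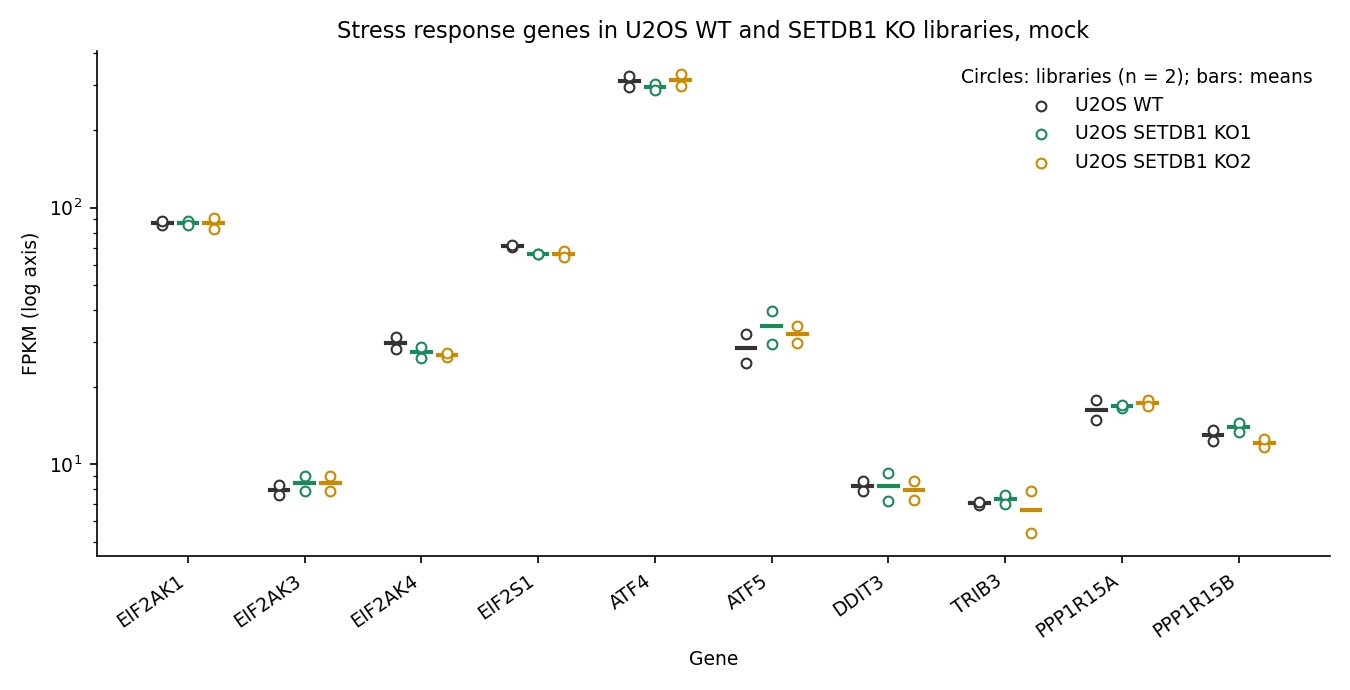
FPKM (log axis) of the 10 genes in the mock-treated U2OS SETDB1 set, with circles for libraries (2 per group) and bars for group means. For 9 genes the range over the 4 KO libraries overlaps the range over the 2 WT libraries. EIF2S1 is lower in the 4 KO libraries (64.2 to 67.7) than in the 2 WT libraries (70.6 and 71.5). Between single groups, EIF2AK4 is lower in KO2 (26.1 and 27.2) than in WT (31.2 and 28.3). PPP1R15B is lower in KO2 (11.7 and 12.6) than in KO1 (14.6 and 13.4).

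In limma's test across all genes, 0 of the 10 genes passed for the mean of the KOs, where 375 of 12648 genes (2.96%) were called at an adjusted p under 0.05. The same count was 0 in KO1, where 2.15% of genes were called, and 0 in KO2, where 2.18% were. None of the 10 had an unadjusted p under 0.05 in these 3 contrasts, fitted without the replicate numbers. ATF5 had the largest difference, 0.22 on the log2 scale (SE 0.139, adjusted p = 0.661 by limma). The median difference of the 10 genes was -0.01, as was that of all genes. The 2 libraries of a group are not stated to be separate cultures, so the p-values measure the spread between these libraries, which may be technical.

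BIX was compared with mock in 4 backgrounds to ask how an inhibitor of EHMT1 and EHMT2 moves these mRNAs. PPP1R15A and DDIT3 had the largest differences, ATF4, PPP1R15B and EIF2S1 were higher in all 4 backgrounds, and the kinases EIF2AK1 and EIF2AK4 were not. Among the 10368 genes tested over 4 backgrounds, limma called 1205 higher (11.6%) and 1027 lower (9.91%), and of the 10 genes it called 5 higher and 0 lower. The median difference over the 4 backgrounds was 0.75 for the 10 genes and -0.01 for all genes tested, on the scale of log2(FPKM + 1). This test takes each background as 1 unit and does not know that backgrounds share a cell line. In bulk RNA, a difference in all cells and one in a fraction of the cells cannot be told apart.

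Within single backgrounds, 7 of the 10 genes were at least 2-fold higher with BIX in U2OS vector, where 6.49% of 12656 genes were 2-fold higher and 4.39% 2-fold lower. In the pair labelled ATG5 KD it was 6 of the 10, beside 8.21% higher and 3.81% lower of all genes. In L929 cGAS WT 2 of the 10 were 2-fold higher (DDIT3 and PPP1R15A), beside 7.43% higher and 6.24% lower. In the pair labelled cGAS KO 3 were 2-fold higher (ATF4, DDIT3 and PPP1R15A) and 1 lower (TRIB3), beside 13.1% higher and 9.92% lower. These comparisons have 1 value per group and no test.

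**Figure D2:**
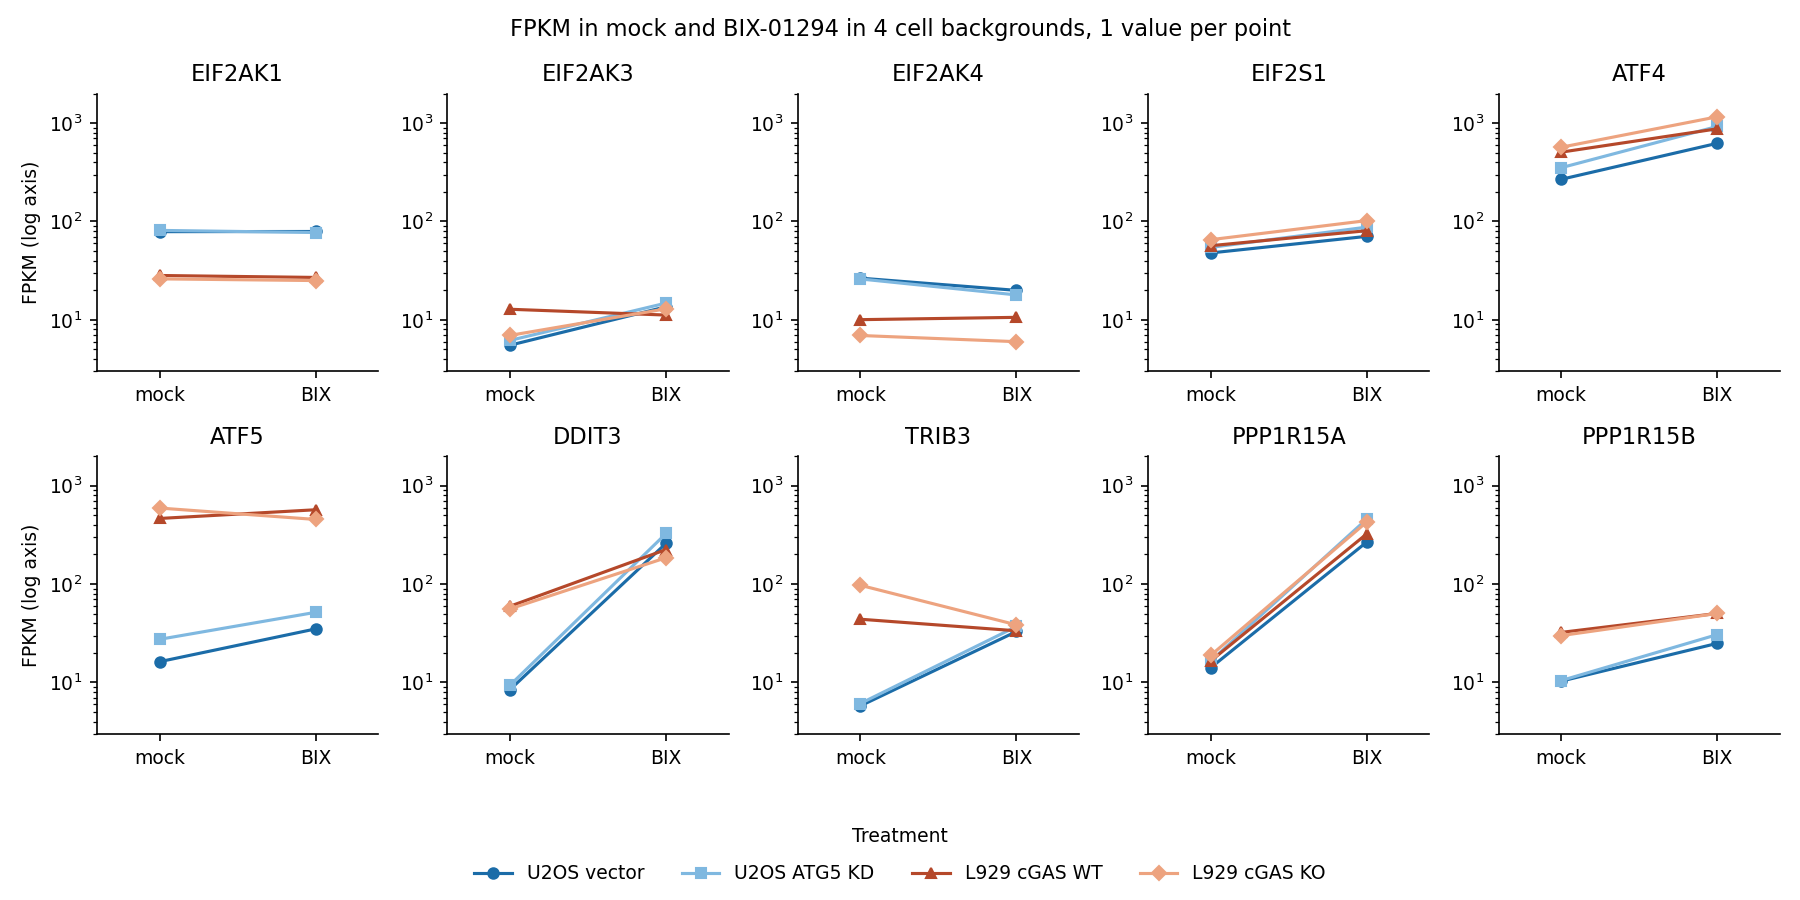
FPKM (log axis) of the 10 genes in mock and BIX, 1 panel per gene and 1 line per background, each point 1 value. PPP1R15A lies between 14.1 and 18.8 FPKM in mock and between 268 and 459 with BIX, and the lines of TRIB3 go up in U2OS and down in L929.

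The kinases stand first in the pathway, and EIF2AK1 and EIF2AK4 had small differences. EIF2AK1 was at 78.8 FPKM in vector mock and 79.1 with BIX, at 81.2 and 77.3 in the pair labelled ATG5 KD, at 28.3 and 27.0 in cGAS WT, and at 26.1 and 25.1 in the pair labelled cGAS KO. Its mean log2 difference was -0.05 (SE 0.094, adjusted p = 0.737 by limma). EIF2AK4 was at 26.6 and 19.9 in vector, 26.1 and 17.9 in the pair labelled ATG5 KD, 10.0 and 10.6 in cGAS WT, and 6.94 and 6.00 in the pair labelled cGAS KO. It was thus lower with BIX in 3 of 4 backgrounds, and the mean of -0.26 did not pass (SE 0.143, adjusted p = 0.230 by limma).

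EIF2AK3 behaved differently among the 4 backgrounds. It was at 5.52 FPKM in vector mock and 13.6 with BIX, at 6.18 and 14.8 in the pair labelled ATG5 KD, and at 6.95 and 13.0 in the pair labelled cGAS KO. In cGAS WT it was at 12.8 in mock and 11.2 with BIX. The cGAS WT mock value was therefore near the BIX values of the other 3 backgrounds. The mean difference of 0.73 (SE 0.250) did not pass over the 4 backgrounds (adjusted p = 0.0848 by limma). Without the cGAS WT pair it was 1.04 and passed (adjusted p = 0.0327 by limma).

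EIF2AK2, the kinase PKR that binds double-stranded RNA, is the remaining eIF2 kinase gene and is given to complete the set, outside the rule for named genes. Of the summed FPKM of the 4 kinase genes, EIF2AK1 made up 58.6% in vector mock and 59.2% with BIX, and 41.5% and 38.4% in cGAS WT. EIF2AK3 went from 4.11% to 10.2% of that sum in vector and from 4.46% to 11.4% in the pair labelled ATG5 KD. In L929 EIF2AK2 made up 24.8% in cGAS WT mock and 43.2% in the mock library labelled cGAS KO, where it had the largest share. In the mouse table this entry is joined with the gene model GM6548.

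EIF2S1 rose with BIX by 0.59 (log2, SE 0.092, adjusted p = 0.0122 by limma). Its FPKM was 47.9 in vector mock and 70.6 with BIX, 54.5 and 87.7 in the pair labelled ATG5 KD, 56.7 and 80.6 in cGAS WT, and 65.3 and 102.1 in the pair labelled cGAS KO. All 4 BIX values lay above all 4 mock values. ATF4 rose by 1.11 (SE 0.109, adjusted p = 0.00634 by limma). It was at 268 FPKM in vector mock and 623 with BIX, at 352 and 925 in the pair labelled ATG5 KD, at 507 and 875 in cGAS WT, and at 568 and 1160 in the pair labelled cGAS KO, where the difference was 2.04-fold.

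PPP1R15A had the largest mean rise of the 10 genes over the 4 backgrounds, 4.38 (log2, SE 0.124, adjusted p = 0.000159 by limma). It was at 14.1 FPKM in vector mock and 268 with BIX, at 16.5 and 459 in the pair labelled ATG5 KD, at 16.5 and 325 in cGAS WT, and at 18.8 and 429 in the pair labelled cGAS KO. Mock values were alike in both lines, and the ratios were 19.0, 27.8, 19.7 and 22.8. PPP1R15B, its constitutive counterpart, rose by 1.01 (SE 0.173, adjusted p = 0.0153 by limma). Its values were 10.3 and 25.0 in vector, 10.4 and 30.7 in the pair labelled ATG5 KD, 32.3 and 50.4 in cGAS WT, and 29.9 and 50.3 in the pair labelled cGAS KO.

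DDIT3 rose by 3.35 (SE 0.634, adjusted p = 0.0193 by limma), with unequal values in the lines. It was at 8.45 FPKM in vector mock and 260 with BIX, and at 9.36 and 327 in the pair labelled ATG5 KD. Its L929 values were 59.5 in cGAS WT mock and 225 with BIX, and 55.9 and 186 in the pair labelled cGAS KO. The ratio was thus 30.8 and 35.0 in U2OS and 3.77 and 3.32 in L929, from a mock level that was higher in L929. In both U2OS backgrounds the log2 difference of DDIT3 (4.79 and 4.99) was above that of PPP1R15A (4.16 and 4.71), and in both L929 backgrounds it was below.

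ATF5 and TRIB3 did not pass over the 4 backgrounds (0.47 with adjusted p = 0.205 and 0.76 with adjusted p = 0.425 by limma). ATF5 was at 16.3 FPKM in vector mock and 35.1 with BIX, at 27.5 and 51.7 in the pair labelled ATG5 KD, at 465 and 570 in cGAS WT, and at 593 and 454 in the pair labelled cGAS KO. TRIB3 was at 5.78 and 33.0 in vector, 6.11 and 37.1 in the pair labelled ATG5 KD, 44.0 and 33.5 in cGAS WT, and 97.3 and 38.5 in the pair labelled cGAS KO. With BIX, TRIB3 lay between 33.0 and 38.5 in all 4 backgrounds, while its mock values were lower in U2OS than in L929. These levels are from human and mouse tables normalized separately.

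The 5 calls did not all hold without single backgrounds. Without the vector pair, and likewise without the pair labelled ATG5 KD, limma called 2 of the 10 genes, ATF4 and PPP1R15A. Of all genes it called 458 of 10070 and 287 of 10079. EIF2S1, DDIT3 and PPP1R15B then had adjusted p-values of 0.0613 to 0.0669 by limma. With 1 value per cell line EIF2S1 did not pass (adjusted p = 0.145 by limma).

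**Figure D3:**
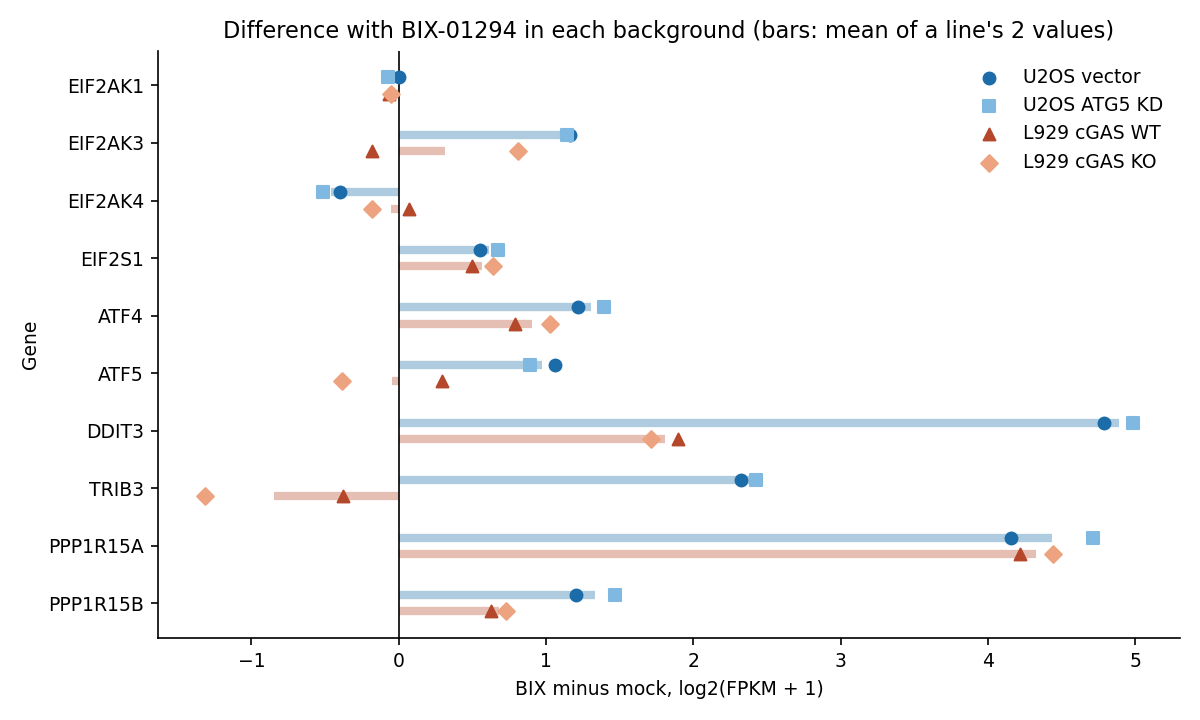
Difference between BIX and mock in log2(FPKM + 1) for the 10 genes, with 1 point per background and pale bars for the mean of the 2 values of a line. U2OS and L929 points are together for PPP1R15A (4.16 to 4.71) and apart for DDIT3 and TRIB3.

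The difference with BIX was then compared between the lines, as the 2 L929 differences against the 2 U2OS differences. The spread behind this test is that between the 2 backgrounds of a line, not between separate lines or repeated experiments. Of 10368 genes, limma called 1555 lower in L929 (15.0%) and 1146 higher (11.1%). Of the 10 genes, 4 were called lower in L929 and 0 higher. TRIB3 differed by -3.22 (SE 0.334, adjusted p = 0.0160) and DDIT3 by -3.08 (SE 0.141, adjusted p = 0.0152). ATF5 differed by -1.02 (SE 0.254, adjusted p = 0.0482) and PPP1R15B by -0.66 (SE 0.155, adjusted p = 0.0440). ATF5 did not pass with a pseudocount of 0.1 (adjusted p = 0.0524 by limma), with no filter (0.0802) or with no variance trend (0.0534), and PPP1R15B did not pass with no filter (0.0580). Species, line, medium and table cannot be told apart here.

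PPP1R15A had a difference of -0.11 between the lines (SE 0.227, adjusted p = 0.737 by limma), and EIF2S1 one of -0.04 (SE 0.126, adjusted p = 0.805 by limma). ATF4 did not pass either (-0.40, SE 0.135, adjusted p = 0.0938 by limma). The calls between the lines were lost without the vector pair or the pair labelled ATG5 KD, where U2OS was left with 1 difference. PPP1R15B did not pass without cGAS WT (adjusted p = 0.0642 by limma) or without the pair labelled cGAS KO (adjusted p = 0.0522), and EIF2AK3 passed without the latter (-1.33, adjusted p = 0.0251). A line left with 1 difference is assumed to vary like the other line, whose 2 EIF2AK3 differences were 1.16 and 1.14.

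Ratios of FPKM within a sample show how the genes moved against each other. PPP1R15A was at 1.09 to 1.58 times PPP1R15B in the 8 mock U2OS samples and at 10.7 and 15.0 times with BIX. In L929 this ratio was 0.512 and 0.629 in mock and 6.45 and 8.52 with BIX, so PPP1R15A passed from the lower to the higher of the pair there. DDIT3 was at 0.0244 to 0.0315 of ATF4 in mock U2OS and at 0.417 and 0.354 with BIX, and in L929 at 0.118 and 0.0984 in mock and 0.257 and 0.160 with BIX. TRIB3 was at 0.653 to 0.974 of DDIT3 in mock U2OS, at 0.739 in cGAS WT mock and at 1.74 in the mock library labelled cGAS KO. In the 4 BIX samples it was at 0.113 to 0.208 of DDIT3, so each of these 3 ratios separated BIX from mock within a line.

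**Figure D4:**
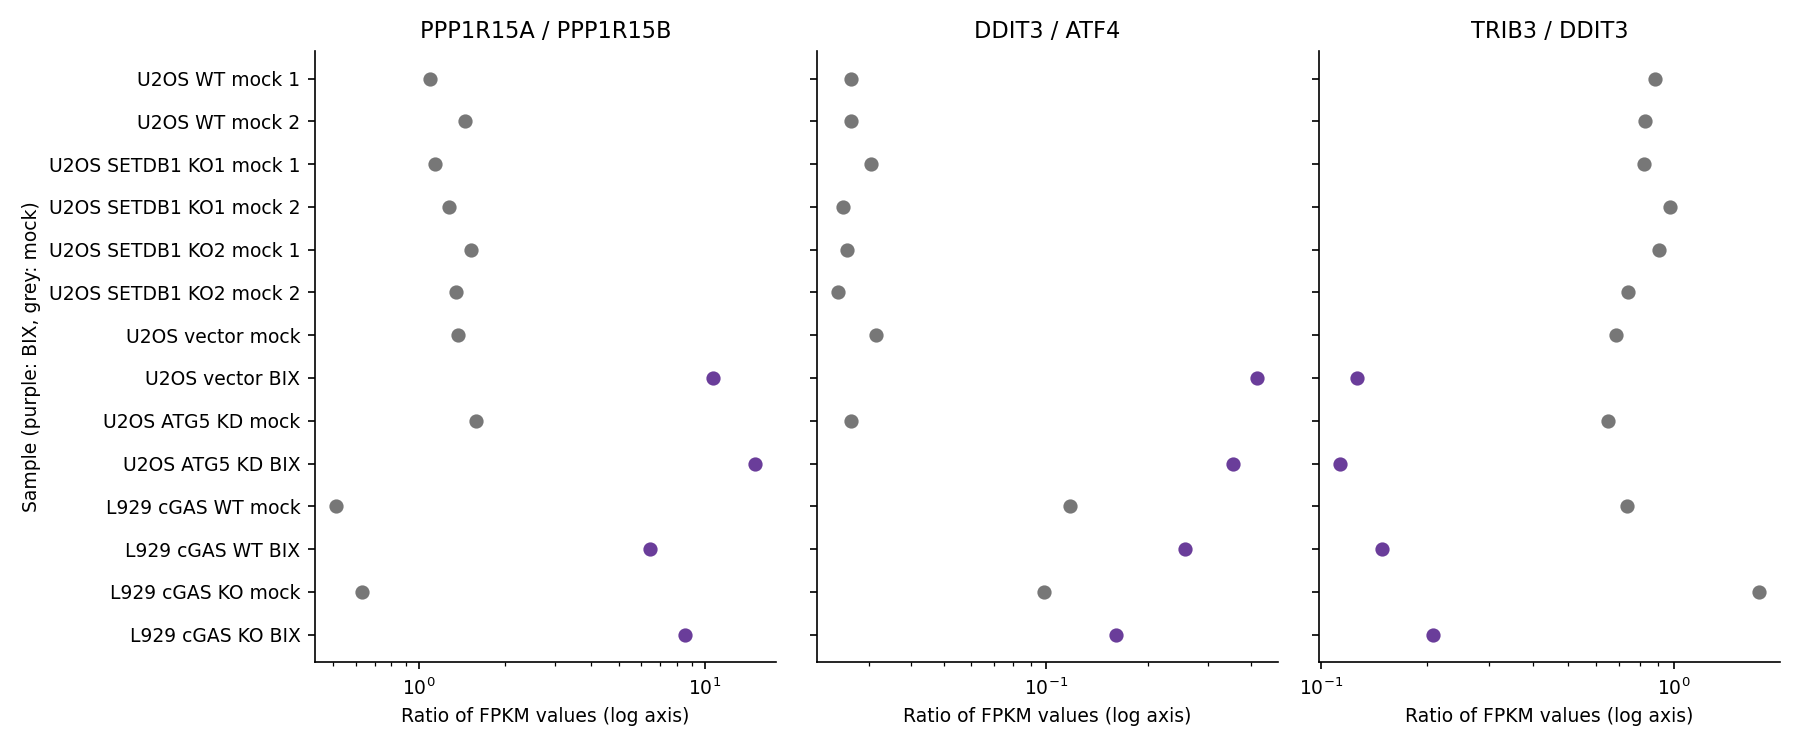
Ratios of FPKM (log axes) between PPP1R15A and PPP1R15B, DDIT3 and ATF4, and TRIB3 and DDIT3 in each of the 14 samples, grey for mock and purple for BIX. In U2OS the PPP1R15A to PPP1R15B ratio is 1.09 to 1.58 in mock and 10.7 and 15.0 with BIX.

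ATG5 is needed for autophagosome formation, and its knockdown was compared with vector to ask whether it changes these genes. In mock, 0 of the 10 genes were 2-fold apart, beside 1.30% of 12576 genes. With BIX the count was again 0, beside 2.24% of 12349 genes. ATF5 had the largest mock difference, 16.3 FPKM in vector against 27.5 in the value labelled ATG5 KD, a ratio of 1.69. With BIX, PPP1R15A had the largest, 268 against 459, a ratio of 1.71. In the values labelled ATG5 KD, 9 of the 10 genes were higher in mock and 8 with BIX, with medians of 0.14 and 0.30 on the log2 scale beside 0.01 and 0.03 for all genes. The gene lists described below were shifted the same way, with medians of 0.059 to 0.163 in mock and 0.069 to 0.265 with BIX. Sums of FPKM were also higher in the values labelled ATG5 KD (485216.5 against 445280.6 in mock, 564049.5 against 486818.9 with BIX).

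cGAS detects DNA in the cytosol, and the cGAS KO was compared with WT for the same question. In mock, 1 of the 10 genes was 2-fold apart, beside 7.96% of 11039 genes: TRIB3 was at 44.0 FPKM in cGAS WT and 97.3 in the library labelled cGAS KO. With BIX, 0 of the 10 genes were 2-fold apart, beside 11.8% of 11384 genes. In the mock libraries EIF2AK3 was at 12.8 in cGAS WT and 6.95 in the library labelled cGAS KO, and EIF2AK4 at 10.0 and 6.94. EIF2AK4 was also lower in the latter with BIX (10.6 against 6.00). In both treatments 5 of the 10 genes were above and 5 below cGAS WT.

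**Figure D5:**
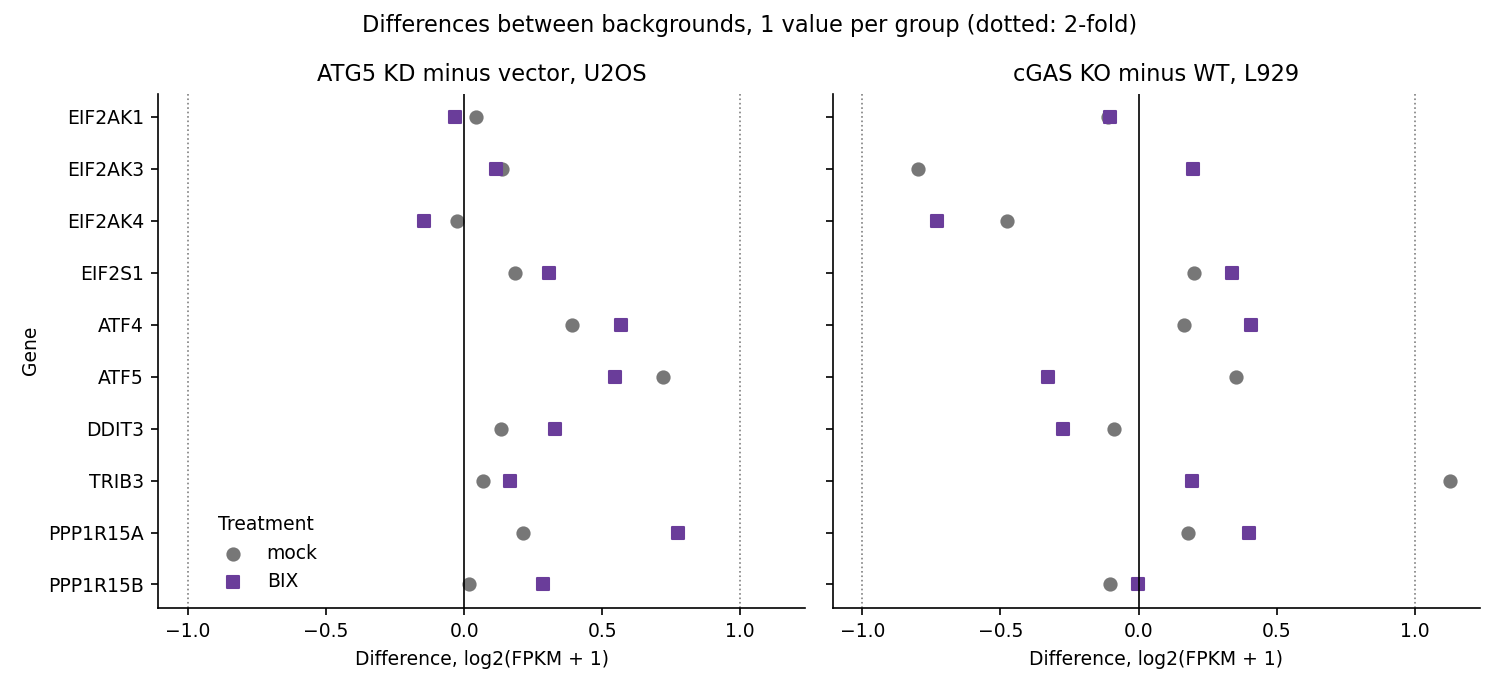
Differences in log2(FPKM + 1) between the values labelled ATG5 KD and vector (left) and between those labelled cGAS KO and WT (right), circles for mock and squares for BIX, dotted lines at 2-fold. TRIB3 in mock L929 is the 1 point past 2-fold (1.13).

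Genes of the pathway outside the 10 were taken from 5 lists. Among the regulators of eIF2 and its kinases, limma called 2 of 16 higher and 1 lower with BIX over the 4 backgrounds, close to the 11.6% and 9.91% of all genes, with a median of 0.11 beside -0.01 for all genes. CSNK1D, a casein kinase gene, rose by 0.75 (adjusted p = 0.0160), EIF2S2, the beta subunit of eIF2, rose by 0.32, and OMA1, a mitochondrial protease, fell by 0.65. Genes such as EIF2S2 and OMA1 that complete a count of 5 or fewer here and below were chosen after their values were seen. IMPACT, whose protein restrains GCN2, went from 37.9 to 80.1 FPKM in cGAS WT and from 29.6 to 105 in the pair labelled cGAS KO, but from 2.98 to 1.69 in vector and from 3.11 to 2.06 in the pair labelled ATG5 KD. Its response differed between the lines by 1.92 (adjusted p = 0.0192 by limma). DNAJC3, an inhibitor of eIF2 kinases in the ER, went from 35.8 to 12.6 in cGAS WT and differed between the lines by -1.33 (adjusted p = 0.0481 by limma). PPP1CB, a gene of protein phosphatase 1, was at 108 FPKM in cGAS WT mock and 47.8 in the mock library labelled cGAS KO.

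Start codon selection and re-initiation factors decide which reading frames of such mRNAs are used. Of 13 tested, 6 were called higher and 3 lower with BIX over the 4 backgrounds, beside 11.6% and 9.91% of all genes, with a median of 0.29 beside -0.01. Between the lines limma called 0 of 13 (2 at an unadjusted p under 0.05), beside 15.0% lower and 11.1% higher in L929 of all genes. EIF5, which triggers GTP hydrolysis by eIF2, rose by 1.41 (adjusted p = 0.00634 by limma), from 31.6 to 76.7 FPKM in vector and from 119 to 289 in cGAS WT. EIF3A rose by 0.90 (adjusted p = 0.00913 by limma). BZW1, whose protein competes with eIF5, fell by 1.08 (adjusted p = 0.0118 by limma), and EIF4G2, a factor of cap-independent initiation, fell by 0.83 (adjusted p = 0.0242 by limma). BZW2, a paralog of BZW1, was the other factor called lower (-0.62).

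Of 14 other transcription factor genes of the response, 5 were called higher and 1 lower with BIX, beside 11.6% and 9.91% of all genes, with a median of 0.56 beside -0.01. The 5 were JUN, CEBPB, CEBPG (1.34), FOXO3 (1.44) and ATF6 (0.82). JUN rose by 2.33 (adjusted p = 0.00634 by limma) and CEBPB, a dimer partner of CHOP, by 1.03 (adjusted p = 0.0441 by limma). CREB3L2, a membrane-bound factor, fell by 1.10 (adjusted p = 0.0262 by limma). ATF3, a repressor induced by ATF4, was at 3.63 FPKM in vector mock and 60.8 with BIX, at 6.84 and 115 in the pair labelled ATG5 KD, and at 0.343, 0.657, 0 and 0.0484 in the L929 samples (cGAS WT mock and BIX, then mock and BIX labelled cGAS KO). It passed the filter through U2OS alone, so no test between the lines is given.

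Among the target genes of ATF4, ATF5 or CHOP, 8 of 36 were called higher and 3 lower with BIX over the 4 backgrounds, beside 11.6% and 9.91% of all genes, with a median of 0.18 beside -0.01. The 3 were PCK2 (-1.06), PHGDH (-0.39) and PSAT1 (-0.45), all enzymes of gluconeogenesis or serine synthesis. In U2OS 14 of 35 were at least 2-fold higher and 1 lower in vector, and 13 of 35 higher and 1 lower in the pair labelled ATG5 KD, beside 6.49% and 8.21% of all genes higher. In L929 5 of 40 were higher and 1 lower in cGAS WT, beside 7.43% of all genes higher, and 6 of 39 higher and 2 lower in the pair labelled cGAS KO, near the 13.1% of all genes higher there. The response of 12 of 36 was called lower in L929 (15.0% of all genes) and that of 2 higher (DDIT4, 1.51, and FGF21, 1.09; 11.1% of all genes), with a median of -0.45 beside -0.06 for all genes. The 12 include BEX2, which passed the filter through U2OS alone and was at most at 0.326 FPKM in L929. FGF21 was near the filter limit: 1.38 and 3.07 FPKM in cGAS WT, 0.113 and 0.675 in the pair labelled cGAS KO, and at most 1.51 in U2OS. SLC3A2, a subunit of amino acid transporters, was at 77.5 and 394 FPKM in vector and 90.7 and 158 in cGAS WT (difference between lines -1.87, adjusted p = 0.0190 by limma). GDF15, a stress cytokine, rose by 4.17 over the 4 backgrounds (adjusted p = 0.000159 by limma). SLC7A11, the cystine transporter, was at 3.28 and 39.0 in cGAS WT and at 7.19 and 8.96 in the pair labelled cGAS KO. TXNIP was at 11.6 and 180 in the latter pair and at 31.3 and 65.3 in cGAS WT, and neither gene passed over the 4 backgrounds (adjusted p = 0.351 and 0.0503 by limma).

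Genes of the other arms of the unfolded protein response, which work through IRE1 and ATF6 and not through eIF2, were listed as a comparison. Of 20 tested, 7 were called lower and 2 higher with BIX, beside 9.91% and 11.6% of all genes, with a median of -0.44 beside -0.01 for all genes. At 2-fold, 8 of 20 were lower and 1 higher in cGAS WT, and 4 lower and 2 higher in the pair labelled cGAS KO. In vector and in the pair labelled ATG5 KD 2 of 20 were lower and 0 higher. The shares of all genes 2-fold lower were 6.24%, 9.92%, 4.39% and 3.81%. HSPA5, the ER chaperone BiP, fell by 0.67 (adjusted p = 0.0164 by limma). It went from 190 to 114 FPKM in vector and from 228 to 162 in the pair labelled ATG5 KD. In L929 it went from 2566 to 1243 in cGAS WT and from 752 to 565 in the pair labelled cGAS KO. SDF2L1, an ER chaperone cofactor, fell by 1.54 (adjusted p = 0.00976 by limma). The response of SYVN1 differed between the lines by -1.36 (adjusted p = 0.0232 by limma). The genes called higher were ATF6 (0.82), which is also in the list of transcription factors, and DNAJB9 (1.11). In mock L929, 9 of 20 were at least 2-fold lower in the library labelled cGAS KO than in cGAS WT, where 354 of 11039 genes were. HSPA5 was at 752 in that library and CRELD2, another ER stress gene, at 119 against 367. EIF2AK3 was lower in the same library (6.95 against 12.8), and the part of the ER chaperone difference in that value was not tested. In the SETDB1 set, SDF2L1 fell by 0.51 (adjusted p = 0.0291 by limma) and was the 1 of 19 called, beside 2.96% of all genes. Of 40 targets of ATF4, ATF5 or CHOP, 1 was called there, DDIT4 (-0.62, adjusted p = 0.0106 by limma). The remaining lists had 0 genes called in that set.

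The genes whose pattern over the 8 values of the ATG5 and cGAS sets was nearest to DDIT3 and PPP1R15A were found by Euclidean distance of log2(FPKM + 1), centred on the mean of each line, among 10367 genes. Nearest to PPP1R15A were GDF15 (distance 1.12), FOS (1.13), EGR1 (1.18) and MAFF (1.27). EGR1 was at 40.6 FPKM in vector mock and 432 with BIX, and at 9.81 and 110 in cGAS WT. DDIT3 lay farther from PPP1R15A, at 2.63. Nearest to DDIT3 were GEM (1.48), DUSP2 (1.60), FOSB (1.69) and DCDC2C (1.91). GEM was at 3.98 and 76.3 FPKM in vector and at most at 1.34 in any L929 sample. In mock, FOSB was at most at 0.416 FPKM and DCDC2C at 0.772 in any background, and FOS at 0.552 in L929. At such levels the scale of log2(FPKM + 1) understates a change, so these distances depend on it. The 8 values share 2 tables and 2 lines, so the distances are a description.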

How the data were processed

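RNA was measured in 14 of the 22 samples of the series. The other 8 are chromatin samples and were not analysed here. Per the submitters' processing notes, reads were handled with FastQC, cutadapt, TopHat2 and Cufflinks on hg19/GRCh37 or mm10/GRCm38. With versions, options, annotation and strandedness not stated there, reads of a gene and of an antisense partner cannot be told apart. The authors deposited a table of FPKM for each set, which was not rescaled. Read counts, and so the depth of a sample, are unknown.

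A symbol with repeated entries took the entry of highest mean FPKM, and joined loci stayed 1 gene. Tests used limma 3.58.1 in R 4.3.3 on log2(FPKM + 1), with a variance trend and Benjamini-Hochberg adjustment over all genes tested, called under 0.05. A fold change on this scale understates the change of low genes. Genes needed FPKM of at least 1 in 2 libraries of the SETDB1 set, or, in the BIX fits, in 2 of 8 values, where human and mouse symbols were matched with case ignored. Single comparisons needed that FPKM in either value and were counted at 2-fold, with no test. The 2 SETDB1 KOs share the WT libraries, and BIX and background comparisons of a set share samples. The SETDB1 fit and the BIX fit over backgrounds were also run on simulated data. There each background varied independently, unlike backgrounds that share a line, and the fit between lines was not simulated.

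Named genes were the 10 genes, the targets of the study, from each list the 4 members with the largest difference among those that passed a test or were 2-fold apart, and the 4 genes nearest to DDIT3 and to PPP1R15A. Promoter letters are from RefSeq on GRCh38.p14. The genes and lists were chosen with earlier results of these data known. Alternatives covered the pseudocount, the filter, scaling, the variance trend, repeated entries, the fold, the replicate block, single libraries or backgrounds left out and 1 value per cell line. Leaving out short non-coding RNAs and requiring FPKM of at least 1 in each line, with and without median centring, were added after seeing the data.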

Additional observations from a re-analysis of the deposited data

Results flagged for a closer look

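The response to BIX differed between L929 and U2OS, by limma's test of that difference, for TRIB3 (-3.22 on the log2 scale), DDIT3 (-3.08), ATF5 (-1.02) and PPP1R15B (-0.66). That test takes its spread from the backgrounds within each line, not from separate lines. All 4 calls were lost without either U2OS pair, and those of ATF5 and PPP1R15B also under other settings given with the results.

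Within a line, some genes went up with BIX in one background and down in the other, which was not tested. The difference with BIX of EIF2AK3 was 0.99 higher in the pair labelled cGAS KO than in cGAS WT, that of EIF2AK4 was -0.25 and that of ATF5 was -0.68 on the same scale. For EIF2AK1 the difference between the pair labelled ATG5 KD and vector was -0.076. The smallest of these rest on values such as 79.1 against 78.8 FPKM.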

How the results depend on the processing

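Over the alternatives run for the 10 genes, 0 calls reversed, and 23 of 740 differences changed sign, none of them called. The replicate block left 0 of the 10 genes called and gave 455, 349 and 335 genes in the mean of the KOs, KO1 and KO2. With it ATF5 had an unadjusted p of 0.0264 in the mean of the KOs (adjusted p = 0.264 by limma). The numbers were not taken to pair the samples, since no label says so and 1 of the correlations of deviations (0.108, 0.131 and 0.0827 over 12648 genes) was under 0.1. Steps of low values lined up in 17.9% to 22.9% of genes between libraries of the same number and in 6.86% to 8.60% otherwise. Against 375, 272 and 276 genes, no filter gave 245, 159 and 165, and FPKM of at least 5 gave 184, 127 and 127. Leaving out single libraries gave 251 to 383, 192 to 282 and 157 to 334 (lowest without KO2 replicate 2).

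With BIX over the 4 backgrounds 2232 of 10368 genes were called, and 1 value per cell line gave 642. Leaving out a background gave between 287 of 10079 and 1234 of 10158, with 2 to 6 of the 10 genes. Of 2701 differing between the lines, leaving out either U2OS pair left 0 genes and 0 of the 10, with fewer values per line, and leaving out either L929 pair 3307 and 3985 genes with 4 and 3 of the 10. No filter left 2 of the 10. Besides the lost calls given in the results, PPP1R15B was lost with FPKM of at least 1 in each line and median centring (0.0555). The cause was not tested.

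At 1.5-fold, genes past the fold with BIX were 4072 of 12656 in vector and 4231 of 12709 in ATG5 KD. They were 3954 of 11099 in cGAS WT, with 4 of the 10 genes, and 5400 of 11405 in cGAS KO, with 7 of the 10. ATG5 KD against vector gave 539 of 12576 in mock and 1011 of 12349 with BIX (1 of the 10 in each). For cGAS KO against WT it was 2438 of 11039 and 3672 of 11384 (2 and 1 of the 10). Pseudocount 0.1 gave 2174 and 2412 with BIX in vector and ATG5 KD, 312 and 553 for ATG5 KD, and 2067 for cGAS KO with BIX. FPKM of at least 5 gave 576 for cGAS KO in mock. With 1 value per group and unknown depth, single comparisons have no measure of error.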
